A study of Mus musculus with 8 samples.

Results

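The 10 genes described here encode the pumps that load calcium into the sarcoplasmic or endoplasmic reticulum (Atp2a1, Atp2a2 and Atp2a3, whose products are called SERCA1, SERCA2 and SERCA3), the small peptides that restrain them (Sln and Pln), the channels and the voltage sensor that let calcium out again (Ryr1, Ryr2 and Cacna1s), and the proteins that hold it in store (Casq1 and Casq2). They were picked by gene symbol from a table of 54532 genes, and 10 of 10 were found. The RNA came from interscapular brown fat of 7-month-old male mice kept on normal chow and held at 4 °C for 24 h. In 4 mice a floxed Pparg gene was combined with Myl1-Cre, and 4 control mice carried the floxed gene without Cre. Pparg encodes the master regulator of fat cell formation, and Myl1-Cre places the recombinase under the gene for a myosin light chain, which is active in skeletal muscle as well as in the progenitor cells the study is about. The series asks what these progenitor cells add to brown fat in adult mice. Every mouse, controls included, had the floxed allele and the cold exposure, so no unexposed tissue was compared.

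SERCA pumps use ATP to draw calcium from the cytosol into the reticulum, which keeps the cytosol low in calcium and the store ready for release. In skeletal muscle a change in membrane voltage moves the sensor encoded by Cacna1s, which opens the release channel RYR1, and calsequestrin inside the store buffers the calcium near that channel. Sarcolipin, the product of Sln, lets SERCA burn ATP without moving calcium, so the pump gives off heat, and calcium cycling through SERCA2 and RYR2 has been described as a source of heat in beige fat cells that lack UCP1.

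The labels were checked first. Pparg had 279, 267, 269 and 320 CPM (counts scaled to a fixed library size) in the knockout-labelled libraries, against 201, 200, 186 and 202 CPM in the control libraries. The targeted gene was thus higher where its loss is labelled, by 0.52 ± 0.09 (SE) on the log2 scale with an edgeR adjusted p of 0.0328, a call lost when any 1 library was left out. The count is taken over the whole gene in whole tissue, with cells that lack Cre included, and no source used here says which exons are floxed. Directions below are given for the knockout-labelled libraries, since the whole-gene count of Pparg goes against the label. That count does not show whether the floxed exons were lost in the cells with Cre. Totals ran from 12226608 to 19268945 counts, and a count of 0 allowed up to 0.156 to 0.245 CPM, for counting error only. Brown fat markers were abundant in every library (9 markers summed to 21361 to 27939 CPM in the knockout-labelled libraries and 26728 to 32832 CPM in controls). Skeletal muscle transcripts were abundant too. Summed over 10 fast fibre markers, they took 5435 to 11052 CPM in the knockout-labelled libraries and 2841 to 7178 CPM in controls, and over 8 slow fibre markers 1164 to 3106 CPM and 512 to 1936 CPM. No marker of either list was at 0 in the series. Cardiac markers were nearly absent, at a summed 5.83 to 7.66 CPM in the knockout-labelled libraries and 6.14 to 11.9 CPM in controls, with Nppb and Myl7 at 0 in all 8 libraries.

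Of the 10 genes, 9 had a higher mean in the knockout-labelled libraries and Ryr2 a lower one, and none of these differences passed the test. All 10 cleared the filter on low counts. With edgeR, 0 of the 10 had an adjusted p under 0.05, where 0.385% of the 13756 genes tested did. At an unadjusted p under 0.05, 1 of the 10, Atp2a1, was higher, beside 8.05% of all genes, and 0 were lower, beside 7.12%. DESeq2 also called 0 of 10, where it called 1.61% of genes higher and 1.19% lower, with 1 at an unadjusted p under 0.05, and limma-voom called 0 of 10, with 3. The median log2 fold change of the 10 was 0.41, against 0.00 over all genes tested. For each gene the range of the knockout-labelled libraries overlapped that of the control. In bulk tissue, fewer cells of a type and less RNA per cell cannot be told apart.

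Atp2a1, the pump of fast skeletal muscle fibres, was the most abundant of the 10 and had the largest difference. It had 2362, 2424, 2394 and 1426 CPM in the knockout-labelled libraries 1 to 4, against 614, 2051, 1158 and 1237 CPM in controls 1 to 4. Labelled knockout 1, 2 and 3 lay within a narrow band above every control, while labelled knockout 4 sat between controls 4 and 2. The means were 2152 ± 484 CPM in the knockout-labelled libraries and 1265 ± 592 CPM in controls (SD, n = 4 each), which gave a log2 fold change of 0.77 ± 0.30 (SE, edgeR unadjusted p = 0.0274, adjusted p = 0.271). The gene lies at chr7:126445858-126463108 (GRCm38, as below, minus strand). Its exons share 763 bases with Rabep2 on the opposite strand, and no source used here gives the strand setting of the counting, so its value is uncertain to that extent. Rabep2 itself had 81 to 157 counts a library, and Atp2a1 8205 to 40933.

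Atp2a2 (chr5:122453513-122502225), whose product pumps calcium in heart, slow muscle fibres and most other cells, was next. The knockout-labelled libraries held 560, 971, 899 and 564 CPM and the control libraries 456, 735, 577 and 579 CPM. Labelled knockout 2 and 3 stood above all controls and labelled knockout 1 and 4 below 3 of them. Its log2 fold change was 0.35 ± 0.20 (SE, edgeR adjusted p = 0.435). Atp2a3 (chr11:72961169-72993044), which is expressed mainly in blood cells, platelets and some epithelia and endothelia, had 21.5, 21.8, 16.99 and 16.8 CPM in the knockout-labelled libraries against 11.3, 16.9, 22.8 and 14.8 CPM in controls. Its highest value was in control 3, and the log2 fold change was 0.22 ± 0.19 (SE, edgeR adjusted p = 0.612). Markers of blood cells gave no common direction beside it, with 5 of 7 tested members above 0, Csf1r at 0.24 ± 0.19 and Hba-a1 at -0.72 ± 0.38 on the log2 scale. None was called by edgeR. DESeq2 called 1 higher, Cd68, beside 1.61% of all genes, and it is named here after its value was seen. In either tool 1 was at an unadjusted p under 0.05. Summed levels of that list were 156 to 451 CPM in the knockout-labelled libraries and 205 to 451 CPM in controls, and their part in the value of Atp2a3 was not tested.

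Sln (chr9:53850164-53854560), the gene of sarcolipin, was a low transcript. It had 10.4, 15.5, 10.7 and 7.09 CPM in the knockout-labelled libraries, from 118 to 231 counts, against 6.29, 9.17, 6.38 and 9.43 CPM in controls, from 80 to 183 counts. Labelled knockout 1, 2 and 3 were above every control and labelled knockout 4 was below 2 of them. The log2 fold change was 0.47 ± 0.23 (SE, edgeR adjusted p = 0.360). Pln (chr10:53337667-53345987), the gene of phospholamban, which inhibits SERCA2 in the heart until it is phosphorylated, was near the limit of detection. Its counts were 16, 10, 15 and 11 in the knockout-labelled libraries and 2, 16, 16 and 8 in controls, or 0.887 ± 0.286 and 0.723 ± 0.463 CPM (SD, n = 4 each). The log2 fold change of 0.27 ± 0.48 (SE, edgeR adjusted p = 0.828) came to -0.05 without control 1. Exons of Pln also share bases with Cep85l and Gm47644 on the opposite strand (141 and 1644 bases), and Cep85l had 343 to 743 counts a library, so the value of Pln is uncertain. Opposite-strand genes that share exon bases with Atp2a2, Ryr1, Casq1 and Cacna1s had 0 to 5 counts a library, and Atp2a3, Sln, Ryr2 and Casq2 share none.

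The skeletal release genes had a pattern like that of Atp2a1. Ryr1 (chr7:29003344-29125179), the skeletal muscle release channel, had 348, 450, 395 and 209 CPM in the knockout-labelled libraries and 111, 395, 197 and 190 CPM in controls. Labelled knockout 4 was again close to controls 3 and 4, control 2 reached the level of labelled knockout 3, and control 1 was the lowest of the 8. Its log2 fold change was 0.65 ± 0.34 (SE, edgeR adjusted p = 0.386). Cacna1s (chr1:136052750-136119822), the voltage sensor, had 136, 154, 149 and 74.5 CPM in the knockout-labelled libraries against 34.96, 134, 78.7 and 66.5 CPM in controls, with a log2 fold change of 0.70 ± 0.34 (SE, edgeR adjusted p = 0.356). Labelled knockout 1, 2 and 3 were above every control, labelled knockout 4 was close to controls 3 and 4, and control 1 was the lowest. Ryr2 (chr13:11553102-12106945), the release channel of heart muscle and neurons, went the other way. It had 5.61, 4.08, 5.66 and 2.77 CPM in the knockout-labelled libraries against 6.66, 4.86, 5.42 and 4.75 CPM in controls, a log2 fold change of -0.26 ± 0.24 (SE, edgeR adjusted p = 0.630). Its highest level was in control 1, the library with the lowest Atp2a1, Ryr1 and Cacna1s.

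The calsequestrins buffer calcium in the store, Casq1 (chr1:172209894-172219868) mainly in fast fibres and Casq2 (chr3:102086415-102146514) in heart and slow fibres. Casq1 had 112, 110, 121 and 62.1 CPM in the knockout-labelled libraries and 63.2, 99.6, 64.4 and 107 CPM in controls. The lowest of all 8 was labelled knockout 4, and the other libraries of its group were above every control. The log2 fold change was 0.28 ± 0.22 (SE, edgeR adjusted p = 0.595). Casq2 had 14.0, 33.0, 31.4 and 13.2 CPM in the knockout-labelled libraries and 8.24, 24.6, 15.5 and 9.59 CPM in controls, with a log2 fold change of 0.64 ± 0.38 (SE, edgeR adjusted p = 0.448). Here labelled knockout 2 and 3 stood above all controls, and labelled knockout 1 and 4 lay below controls 2 and 3.

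**Figure D1:**
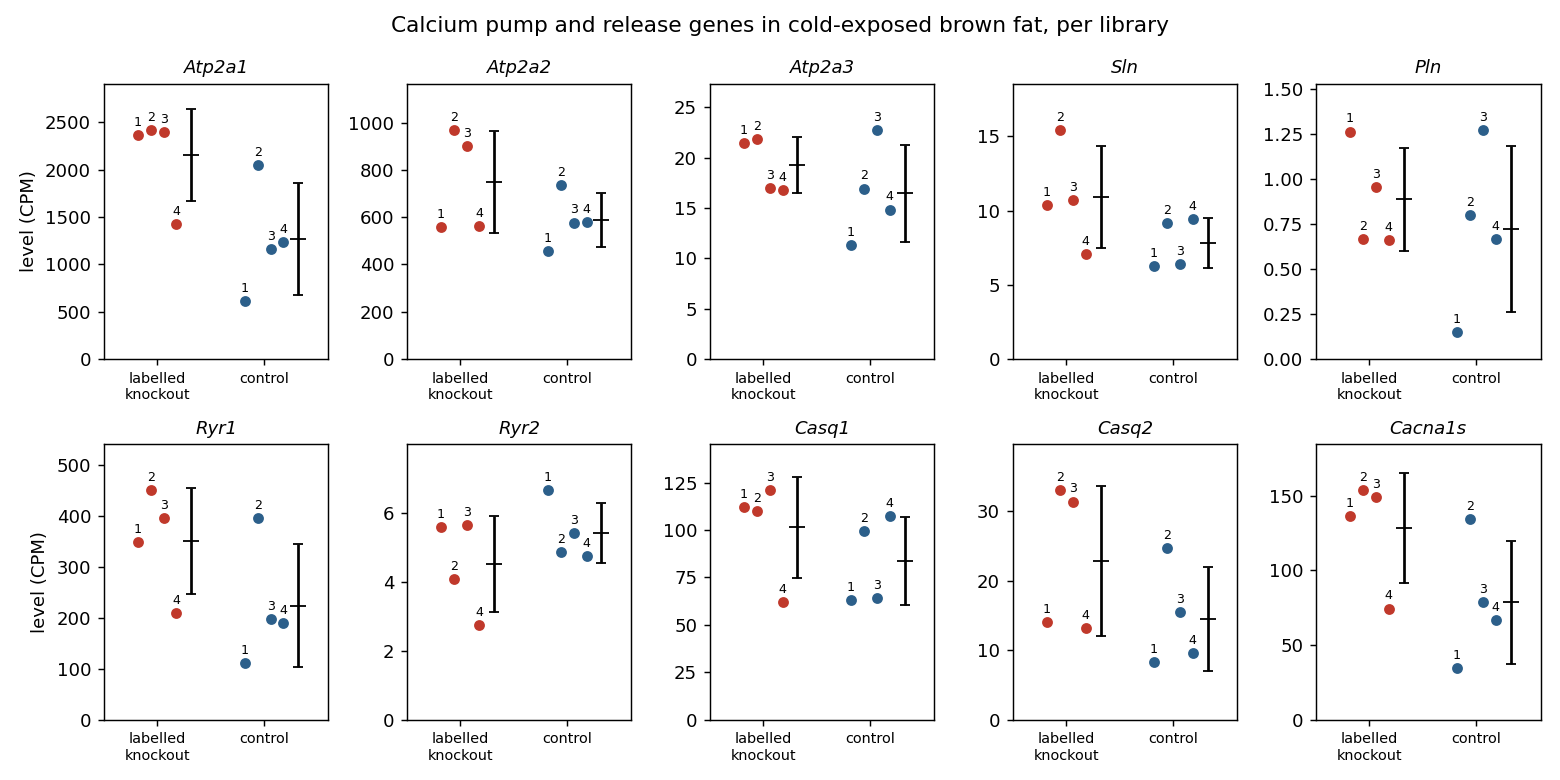
Level of each of the 10 genes in CPM (vertical axes, each from 0), with 1 point per library numbered by mouse, the 4 knockout-labelled libraries in red on the left and the 4 control libraries in blue on the right, and bars for the mean ± SD. Labelled knockout 4 is the lowest of its group for 9 of the 10 genes, all but Atp2a2, and the 2 groups overlap in every panel.

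Counts rise with transcript length, so the genes were ranked by CPM per kb of exon (all annotated exons merged). Atp2a1 came first, at a mean of 491 CPM per kb over the 8 libraries (range 177 to 697), then Atp2a2 at 110 (75.0 to 160) and Casq1 at 47.4 (31.8 to 62.0). These 3 did not overlap with each other or with the next gene. Cacna1s (15.8), Ryr1 (13.1), Sln (7.10), Casq2 (6.83) and Atp2a3 (3.38) followed in CPM per kb, and each of these overlapped in range with its neighbour in the order. The lowest were Pln at 0.292 (0.0543 to 0.462) and Ryr2 at 0.173 (0.0961 to 0.231) CPM per kb, both below every library of Atp2a3. These ranks depend on the annotated exon lengths, from 1318 bases for Sln to 28790 bases for Ryr2.

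**Figure D2:**
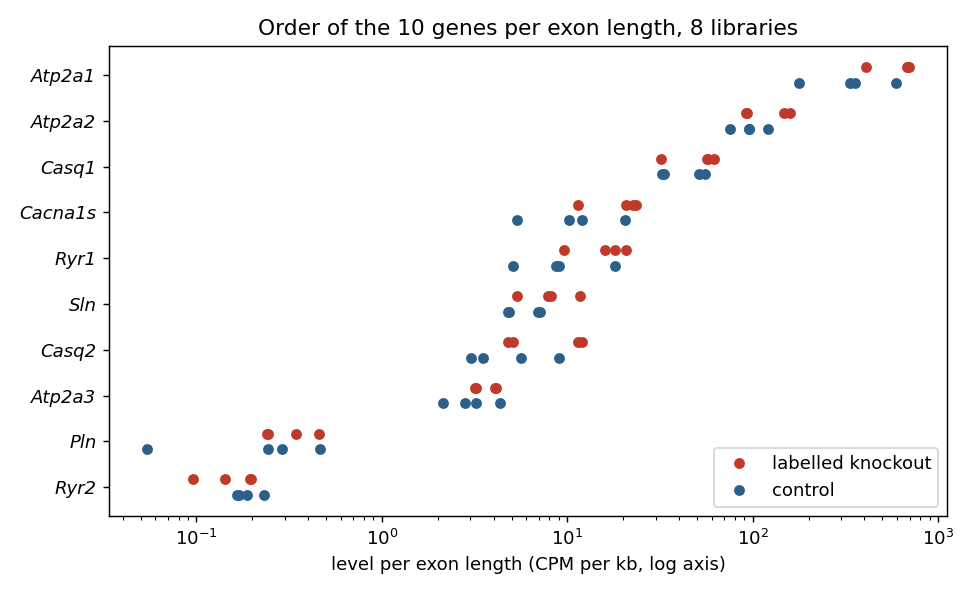
Level per exon length of the 10 genes (horizontal log axis, CPM per kb), ordered by the mean over 8 libraries, with the knockout-labelled libraries in red above the control libraries in blue. The levels span from 0.0543 CPM per kb for Pln in control 1 to 697 CPM per kb for Atp2a1 in labelled knockout 2.

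Per exon length, Atp2a1 made up 87.6, 81.0, 82.0 and 81.0% of the 3 pump transcripts in the knockout-labelled libraries and 69.6, 82.6, 77.0 and 78.4% in controls. Atp2a2 supplied most of the rest, 16.6 ± 3.17% in the knockout-labelled libraries and 22.4 ± 5.27% in controls, and Atp2a3 0.504 ± 0.101% and 0.728 ± 0.242% (SD, n = 4 each). Control 1 held the lowest share of Atp2a1 and labelled knockout 1 the highest.

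Whether the balance within the set differed was asked with 7 log2 ratios taken inside each library, which library scaling does not touch. They were compared by a two-sided exact permutation test, whose smallest possible p with 4 against 4 libraries is 0.0286, and adjusted over the 7. None passed. The log2 ratio of Atp2a1 to Atp2a2 was 1.54 ± 0.36 in the knockout-labelled libraries and 1.00 ± 0.43 in controls (SD, n = 4 each, exact permutation p = 0.114, adjusted p = 0.467). It was 2.08, 1.32, 1.41 and 1.34 in the knockout-labelled libraries against 0.43, 1.48, 1.00 and 1.09 in controls, so that 3 of the 4 knockout-labelled libraries lay below control 2. Sln relative to Atp2a1 had a mean log2 ratio of -7.63 ± 0.25 in the knockout-labelled libraries and -7.21 ± 0.53 in controls (exact permutation p = 0.200, adjusted p = 0.467). On the scale of exon length there were 1.16 to 1.68 Sln transcripts per 100 of Atp2a1 in the knockout-labelled libraries and 1.18 to 2.70 in controls, the highest in control 1. Casq1 relative to Casq2 was 2.22 ± 0.55 in the knockout-labelled libraries and 2.61 ± 0.71 in controls on the log2 scale (exact permutation p = 0.400, adjusted p = 0.560).

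The log2 ratio of Ryr1 to Cacna1s was nearly fixed, at 1.45 ± 0.09 in the knockout-labelled libraries and 1.52 ± 0.14 in controls (SD, n = 4 each, exact permutation p = 0.486, adjusted p = 0.567). Channel and sensor are coupled in the triad, but a steady ratio was not particular to this pair. Over the 8 libraries its SD was 0.12, beside 0.14 for Atp2a1 to Cacna1s and 0.15 for Atp2a1 to Ryr1. Pln relative to Atp2a2 was -9.51 ± 0.66 in the knockout-labelled libraries and -9.61 ± 0.81 in controls on the log2 scale (exact permutation p = 0.829, adjusted p = 0.829), with the few counts of Pln behind it.

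Of the 10 genes, Atp2a1, Ryr1 and Cacna1s followed the skeletal muscle transcripts of the library most closely. As a measure of those transcripts, the mean log2 CPM of the 18 fast and slow fibre markers, none of them among the 10 genes, served as a sarcomere score. It was 8.41, 8.68, 8.58 and 7.63 in the knockout-labelled libraries and 6.73, 8.19, 7.68 and 7.77 in controls, a difference of 0.73 (exact two-sided permutation p = 0.114). Control 1 was the lowest, and labelled knockout 4 lay just below controls 3 and 4. Over the 8 libraries Atp2a1, Ryr1 and Cacna1s spanned 1.98, 2.01 and 2.13 log2 units, yet their log2 ratios to each other varied by SDs of only 0.12 (Ryr1 to Cacna1s), 0.14 (Atp2a1 to Cacna1s) and 0.15 (Atp2a1 to Ryr1). The level of Atp2a1 set against the score differed by 0.13 between the groups, at 2.71 ± 0.13 in the knockout-labelled libraries and 2.59 ± 0.15 in controls on the log2 scale (SD, n = 4 each, exact permutation p = 0.200, adjusted p = 0.467). Sln set against the score was -4.91 ± 0.20 in the knockout-labelled libraries and -4.63 ± 0.44 in controls (exact permutation p = 0.286, adjusted p = 0.5), with control 1 the highest at -4.05.

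With the score as a covariate in the edgeR fit, the log2 fold change of Atp2a1 became 0.12 ± 0.13 (SE, adjusted p = 0.806) and that of Sln 0.04 ± 0.22 (adjusted p = 0.970). Those of Atp2a2, Casq1, Casq2, Ryr1 and Cacna1s turned to between -0.20 and -0.04, with adjusted p from 0.758 to 0.950. Muscle taken along at dissection and a difference in muscle RNA with genotype cannot be told apart in these libraries.

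**Figure D3:**
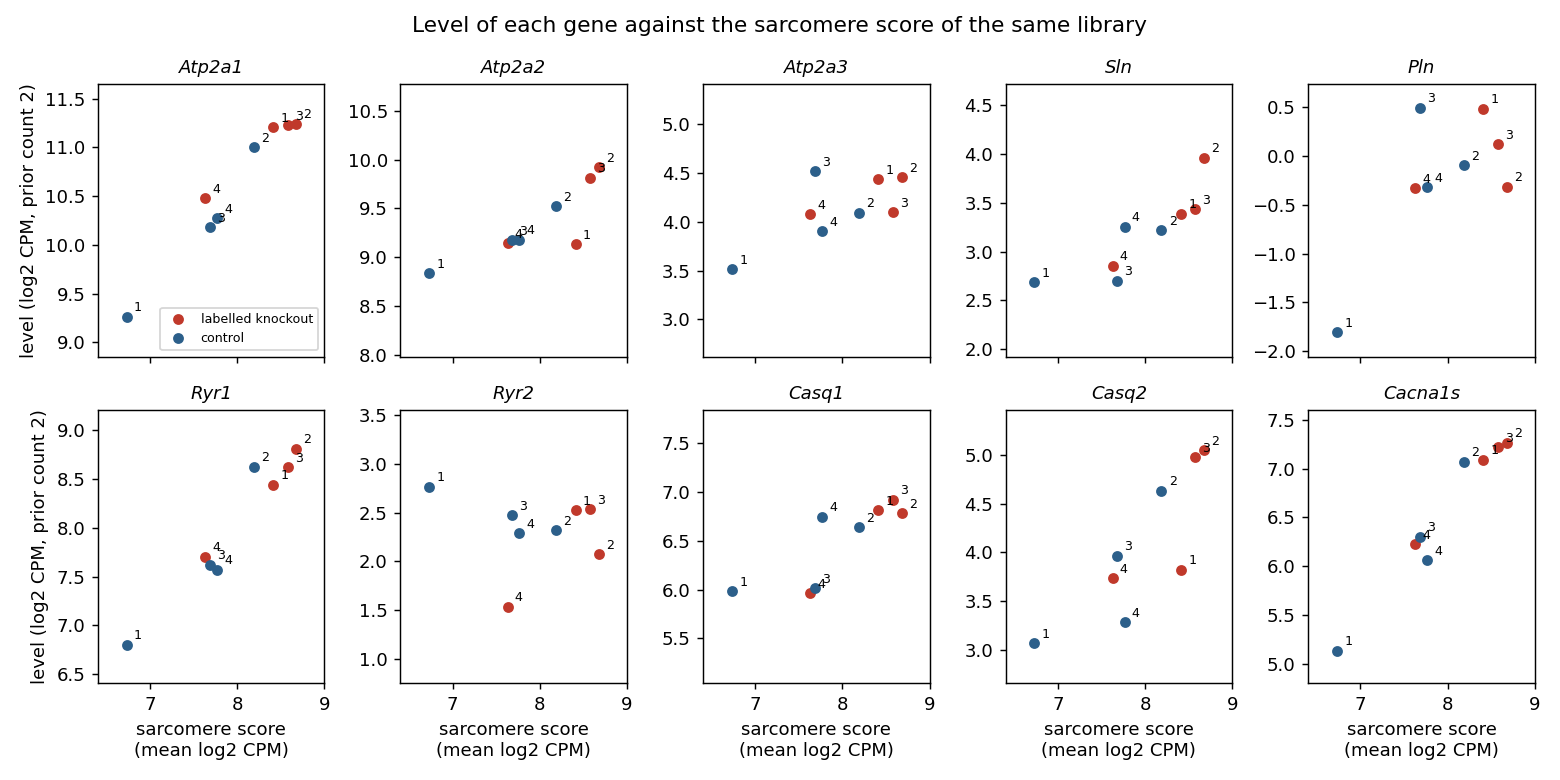
Level of each of the 10 genes (vertical axes, log2 CPM, each spanning the same number of log2 units) against the sarcomere score of the same library (horizontal axis, mean log2 CPM of 18 fibre markers), with the knockout-labelled libraries in red and the control libraries in blue, numbered by mouse. Atp2a1, Ryr1 and Cacna1s climb with the score from control 1 at 6.73 to labelled knockout 2 at 8.68, and Ryr2 does not.

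Fast and slow fibre markers did not keep the same proportion in every library. The fast minus slow difference in mean log2 CPM was widest in labelled knockout 1 (2.48) and control 1 (2.33) and narrowest in labelled knockout 2 (1.46) and control 3 (1.503), with group means of 1.89 ± 0.46 and 1.89 ± 0.36 (SD, n = 4 each, exact permutation p = 0.971). Casq2 kept closer to the slow score (SD of the log2 difference 0.32) than to the fast score (0.54), and Casq1 the reverse (0.54 and 0.32). Atp2a1 varied by an SD of 0.19 against the fast and 0.29 against the slow score. Atp2a2 varied more against either score (0.42 and 0.44) than its own SD of 0.38, and so did Atp2a3 and Ryr2. These SDs describe 8 shared libraries and carry no test.

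The genes whose ratio to a member was most constant were sought among 8219 or 8220 named genes with a mean of at least 10 CPM, by the SD of the log2 ratio over the 8 libraries. For Atp2a1 they were the muscle genes Cmya5 (SD 0.06), Tpm2 (0.11), Tmod1 (0.11) and Pygm (0.12), the last of which encodes muscle glycogen phosphorylase, against a median SD of 0.72 over all candidates. For Atp2a2 they were Got1, a transaminase of the malate-aspartate shuttle (0.09), Tcp11l2 (0.12), Rnf115 (0.13) and Golga4, a Golgi protein (0.13), with a median of 0.42. For Sln they were Flvcr1, a haem and choline transporter (0.16), Pnpla7 (0.18), Dennd4b (0.18) and Rhou (0.18), with a median of 0.47. Pln had no close match, the nearest being Klhl33 (0.36), Gbp3 (0.37), Samhd1 (0.39) and Irgm1 (0.40), and with its few counts these values are weak.

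Casq1 and Casq2 were each closer to a different fibre score, and Atp2a1 was closer to the fast (SD 0.19) than to the slow one (0.29). Its SD to the slow score was still below that of Casq2 (0.32). The DNA before the start sites of these genes is shown. Sequences are from RefSeq (GRCm38.p6, the build of the counts), which held an entry for 8 of the 10 genes, and run 5′ to 3′ on the gene's strand. Capitals mark E-boxes (CANNTG, the site shape read by MyoD and many other factors and the same on both strands) and, in Casq2, a MEF2 box. Each window holds the 250 bases before the RefSeq start, less any that the GENCODE annotation places inside the gene (35 bases for Atp2a1). The windows are chr1:172219896-172220145 (minus strand) for Casq1, chr3:102086165-102086414 (plus strand) for Casq2 and chr7:126463109-126463323 (minus strand) for Atp2a1.
Casq1: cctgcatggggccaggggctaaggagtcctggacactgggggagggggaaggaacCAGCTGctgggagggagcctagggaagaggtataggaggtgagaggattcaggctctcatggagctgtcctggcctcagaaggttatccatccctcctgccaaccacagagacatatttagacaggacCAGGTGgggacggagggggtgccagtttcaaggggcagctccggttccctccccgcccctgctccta
Casq2: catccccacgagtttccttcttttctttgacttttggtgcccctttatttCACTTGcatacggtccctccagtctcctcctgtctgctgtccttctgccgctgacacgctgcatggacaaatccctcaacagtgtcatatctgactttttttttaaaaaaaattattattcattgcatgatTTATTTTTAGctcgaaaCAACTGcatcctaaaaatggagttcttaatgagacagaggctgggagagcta
Atp2a1: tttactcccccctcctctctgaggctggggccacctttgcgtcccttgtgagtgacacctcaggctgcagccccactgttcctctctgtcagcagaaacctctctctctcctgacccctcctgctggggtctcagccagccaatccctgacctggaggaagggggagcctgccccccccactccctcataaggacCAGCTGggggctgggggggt

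The E-boxes begin 195 and 67 bases before the start of Casq1, 200 and 52 bases before that of Casq2 and 55 bases before that of Atp2a1. The motifs were searched in the full 250 bases of every entry, bases not printed here included. Of the 8 genes with an entry, 6 had an E-box and 2, Ryr1 and Atp2a3, had none, while 66.2% of 32851 windows of the same length held at least 1. A MEF2 box was found in 1 of the 8, beginning 69 bases before the start of Casq2 and not overlapping an E-box, against 2.92% of all windows. A match is a description of these letters and does not show a site in use.

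The rest of the calcium machinery was read from lists set against the same fit. Over all genes tested, 8.05% were higher and 7.12% lower at an unadjusted edgeR p under 0.05. DESeq2 called 1.61% higher and 1.19% lower. Of 14 tested genes of the triad and of excitation-contraction coupling, 13 lay above 0 and the median log2 fold change was 0.54, 0 passed edgeR or DESeq2, and 9 were higher at an unadjusted p under 0.05 in edgeR. Among them Trdn, which anchors calsequestrin to the release channel, averaged 129 ± 37.1 CPM in the knockout-labelled libraries and 81.5 ± 26.3 CPM in controls (log2 fold change 0.66 ± 0.27, edgeR adjusted p = 0.284). Fkbp1a, the widely expressed FKBP12 that binds RYR1, was at 138 ± 18.4 CPM in the knockout-labelled libraries and 130 ± 4.93 CPM in controls (0.09 ± 0.10, adjusted p = 0.723). With the sarcomere score as a covariate the median of the list was 0.09 and 9 of 14 lay above 0.

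Other regulators and buffers of the store had a median of 0.66 over 9 tested members, 7 of them above 0 and 0 called by edgeR, with 4 at an unadjusted p under 0.05. Pvalb, the calcium buffer of fast fibres, had a log2 fold change of 0.66 ± 0.27 (edgeR adjusted p = 0.287), and S100a1, a calcium-binding protein of muscle, 0.01 ± 0.10 (adjusted p = 0.968). Further SERCA micropeptides were looked at after their values were seen. Strit1, whose peptide DWORF favours SERCA activity by displacing phospholamban and which the count table lists under the older name Gm34302, had 2.21, 3.08, 2.35 and 2.71 CPM in the knockout-labelled libraries against 0.449, 1.55, 1.04 and 1.08 CPM in controls. All 4 knockout-labelled libraries were above all controls, as in 4.10% of genes tested. Its log2 fold change of 1.29 ± 0.32 had an adjusted p of 0.127 in edgeR and 0.0172 in DESeq2, from 6 to 46 counts a library, and adjusted p ran from 0.0172 to 0.406 over the alternatives. Mrln, whose peptide myoregulin inhibits SERCA in skeletal muscle, was at 4.99 ± 1.68 CPM in the knockout-labelled libraries and 2.99 ± 1.29 CPM in controls (0.72 ± 0.33, edgeR adjusted p = 0.330). With the sarcomere score as a covariate the median of the list was 0.06 and 6 of 9 lay above 0. In that fit Pvalb was at 0.12, S100a1 at 0.14, Strit1 at 0.97 and Mrln at 0.18 on the log2 scale.

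Genes of the IP3 receptors and of store-operated entry, the route by which non-muscle cells release and refill calcium, had a median of -0.06 over 13 tested, with 5 above 0. None passed edgeR, 1 was higher and 1 lower at an unadjusted p under 0.05, and DESeq2 called 1. Calr, the luminal buffer of the endoplasmic reticulum, was at 365 ± 38.5 CPM in the knockout-labelled libraries and 386 ± 20.7 CPM in controls, and Canx, a chaperone of the same compartment, at 261 ± 23.4 and 284 ± 35.1 CPM, with log2 fold changes of -0.08 ± 0.10 and -0.12 ± 0.11 and edgeR adjusted p of 0.743 and 0.636. Itpr1, the type 1 IP3 receptor, was singled out after its values were seen. It had 92.9, 97.5, 92.7 and 107 CPM in the knockout-labelled libraries against 145, 128, 124 and 134 CPM in controls. Every knockout-labelled library was below every control, as for 8.10% of genes in either direction, and the log2 fold change was -0.44 ± 0.09 with an adjusted p of 0.0623 in edgeR and 0.00122 in DESeq2. With the sarcomere score as a covariate it was -0.34 (edgeR adjusted p = 0.314). Orai2, a channel of store-operated calcium entry named for its values in the same way, lay in the other direction. It had 2.69, 1.47, 1.59 and 2.22 CPM in the knockout-labelled libraries, from 22 to 37 counts, against 1.42, 0.551, 0.797 and 0.584 CPM in controls, from 7 to 19 counts. Every knockout-labelled library was above every control, as in 4.10% of genes tested, the closest pair being labelled knockout 2 and control 1. The log2 fold change was 1.25 ± 0.36, with an adjusted p of 0.163 in edgeR and 0.0614 in DESeq2, and 1.82 with the score as a covariate (edgeR adjusted p = 0.144).

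Mitochondrial calcium uptake genes had a median of -0.12 over 8 tested, 7 of them below 0, and 0 passed edgeR or DESeq2, with 2 lower at an unadjusted p under 0.05. The 2 most abundant were Letm1, at 550 ± 70.1 CPM in the knockout-labelled libraries and 659 ± 37.9 CPM in controls (log2 fold change -0.26 ± 0.11, edgeR adjusted p = 0.295), and Mcur1, a regulator of the mitochondrial uniporter, at 217 ± 23.6 and 270 ± 33.8 CPM (-0.31 ± 0.12, adjusted p = 0.253). Pumps and exchangers of the plasma membrane and Golgi had 4 tested members and 0 calls by edgeR or DESeq2, with 0 at an unadjusted p under 0.05, and Atp2c1 was at -0.05 ± 0.09 and Atp2b1 at 0.21 ± 0.18. Calmodulin and calcium-dependent enzymes had a median of 0.13 over 9 tested, with 8 above 0. Neither edgeR nor DESeq2 called any of them, and 2 were higher at an unadjusted p under 0.05. Calm2, a calmodulin gene, was at 0.13 ± 0.09 on the log2 scale, and Ppp3cb, a catalytic subunit of calcineurin, at 0.12 ± 0.11.

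The marker lists beside these were as follows. All 10 fast fibre markers lay above 0 (median 0.78, 0 called by edgeR, 2 by DESeq2, 9 at an unadjusted p under 0.05 in edgeR), with Myh4 at 0.89 ± 0.33 and Tnnt3 at 0.80 ± 0.25. All 8 slow fibre markers did too (median 0.71, 0 called by either tool, 1 at an unadjusted p under 0.05 in edgeR), with Myh7 at 0.70 ± 0.42 and Myl2 at 0.78 ± 0.38. Myl1, the gene that drives Cre and a fast fibre transcript itself, was at 367 ± 105 CPM in the knockout-labelled libraries and 378 ± 68.8 CPM in controls (log2 fold change -0.05 ± 0.20, edgeR adjusted p = 0.940). Of the 4 tested cardiac markers 1 lay above 0 and 0 were called by edgeR or DESeq2 (1 lower at an unadjusted p under 0.05), with Myl4 at -0.20 ± 0.22 and Actc1 at -1.38 ± 0.45 (edgeR adjusted p = 0.205). The value of Actc1 rests on 6 to 35 counts a library. Smooth muscle markers (9 tested) had a median of 0.17 and 0 calls by edgeR or DESeq2 (1 at an unadjusted p under 0.05), with Rgs5 at 0.02 ± 0.13 and Mylk at 0.18 ± 0.09. Endothelial markers (6 tested) had a median of 0.00 and 0 calls by edgeR or DESeq2 (0 at an unadjusted p under 0.05), with Kdr at -0.08 ± 0.14 and Cdh5 at -0.01 ± 0.13, or 0.02 under scaling by total counts. All 9 brown adipocyte markers lay below 0 with a median of -0.38. Of these, edgeR called 1 lower (4 at an unadjusted p under 0.05) and DESeq2 called 3 (6 at an unadjusted p under 0.05). Elovl3, a fatty acid elongase, and Plin1, a lipid droplet coat protein, were called by DESeq2 alone of these tools and are named after their values were seen. They had log2 fold changes of -0.95 ± 0.24 and -0.50 ± 0.12 (edgeR adjusted p = 0.125 and 0.116). For both, every knockout-labelled library was below every control, as for 8.10% of genes tested in either direction. Ppara, a receptor that drives fatty acid oxidation genes, fell to 32.8 ± 8.75 CPM in the knockout-labelled libraries, against 68.6 ± 13.8 CPM in controls (log2 fold change -1.07 ± 0.19, edgeR adjusted p = 0.0441), a call lost in 6 of 8 fits that left out 1 library and under scaling by total counts. Over all genes tested 50.3% lay above 0. At an unadjusted edgeR p under 0.05, 8.05% were higher and 7.12% lower. Calls came to 0.385% in either direction by edgeR, and to 1.61% higher and 1.19% lower by DESeq2.

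**Figure D4:**
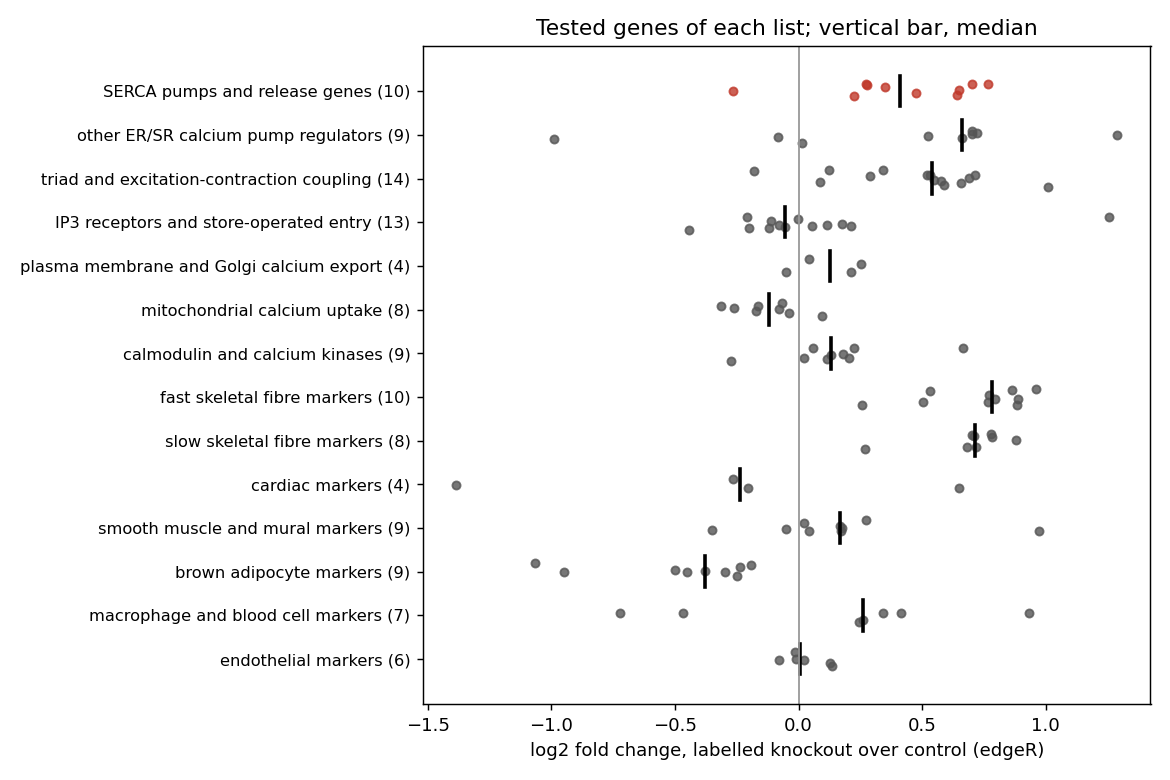
Log2 fold change of each tested gene, knockout-labelled libraries over control (horizontal axis), for the 10 pump and release genes in red and the other lists in grey, with the number tested in parentheses and the median as a black bar. The median is 0.41 for the pump and release genes, 0.54 for the triad list and -0.06 for the IP3 receptor and store-operated entry list.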

How the data were processed

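Per the labels' protocols, stranded mRNA libraries were made, and the submitters' processing notes name HISAT2, Trimmomatic, FastQC, featureCounts (Subread), SAMtools and GRCm38. No source used here gives their settings, their versions or the annotation. The deposited values are raw read counts per gene, 1 column per mouse, matched by genotype and number in the column names. Each of the 8 samples is a mouse of its own by its label, and any 2 libraries differed by more than counting noise (chi-square over its degrees of freedom at least 10.7).

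CPM were taken from these counts after TMM scaling. Genes kept by filterByExpr were tested with edgeR 4.0.16 (quasi-likelihood, intercept and genotype, R 4.3.3) with Benjamini-Hochberg adjustment over 13756 genes and a threshold of 0.05. Each SE is the log2 fold change divided by the root of F. Log2 CPM use a prior count of 2. Exon lengths, positions and overlaps are from GENCODE M21 (GRCm38), which held 99.8% of the IDs. The fits were run on simulated counts with the same spread for every gene and no muscle difference between libraries, and the permutation test on random values. These runs do not show how the fits behave on the genes described here. Alternatives were DESeq2 1.42.0, limma-voom (limma 3.58.1), other scalings and filters, the sarcomere score, a replicate block and each library left out. The members and lists were chosen with earlier results of these data known. Named from each list were members past the threshold, otherwise the 2 most abundant; Strit1, Mrln, Itpr1, Orai2, Elovl3, Plin1 and Cd68 were added after their values were seen. One listed gene is not reported here.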

Additional observations from a re-analysis of the deposited data

Results flagged for a closer look

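Among 98 groups of 4 libraries checked, 6 had 1 library far from the other 3 by Dixon's ratio (above 0.829), and chance flags about 1 in 20. Labelled knockout 4 stood low for Atp2a1, at 1426 CPM, and for Trdn, at 73.3 CPM. Labelled knockout 1 stood high in the log2 ratio of Atp2a1 to Atp2a2, at 2.08. Control 2 stood high in Atp2a1 relative to the sarcomere score, at 2.81 on the log2 scale. Control 3 stood low for Pparg, at 186 CPM, and control 4 high for Atp2c1, at 44.2 CPM.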

How the results depend on the processing

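Beside the 53 genes that edgeR called, DESeq2 called 384, no filter on low counts 187, the sarcomere score as a covariate 33 and a replicate block 155, and leaving out 1 library gave 24 to 75. Fewer than 35 were called without labelled knockout 1 (24) or 3 (26) or control 1 (34), 2 (28) or 4 (32). Other scalings, limma-voom and a stricter filter gave 52 or 53. The labels give no pairing of the mice by replicate number. Same-numbered libraries correlated at 0.02, 0.40, 0.03 and 0.17 in their deviations, and 1 of 4 numbers matched itself best. These values do not settle whether the numbers pair the mice. With the replicate block Casq2 had a log2 fold change of 0.66 and an edgeR adjusted p of 0.0463, and it changed no other call among the 10 genes.

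With the sarcomere score as a covariate 7 of the 10 genes changed sign, to -0.043 for Atp2a2, -0.028 for Atp2a3, -0.26 for Pln, -0.086 for Ryr1, -0.20 for Casq1, -0.12 for Casq2 and -0.067 for Cacna1s on the log2 scale. Trdn (-0.0060), Atp2b1 (-0.135), Myh7 (-0.24), Myl2 (-0.14), Myl4 (0.14) and Rgs5 (-0.155) also changed sign. Leaving out 1 library gave log2 fold changes of 0.54 (without control 1) to 1.097 (without control 2) for Atp2a1, and, without the same libraries, 0.42 to 1.07 for Ryr1 and 0.46 to 1.09 for Cacna1s. It gave 0.41 (without labelled knockout 2) to 1.04 (without control 2) for Casq2, 0.26 (without labelled knockout 2) to 0.63 (without labelled knockout 4) for Sln and -0.050 (without control 1) to 0.65 (without control 3) for Pln. The values were 0.20 (without labelled knockout 2) to 0.47 (without control 2) for Atp2a2, 0.082 (without control 1) to 0.42 (without control 3) for Atp2a3, 0.16 (without control 1) to 0.45 (without labelled knockout 4) for Casq1 and -0.39 (without labelled knockout 3) to -0.083 (without labelled knockout 4) for Ryr2. All of the 10 genes but Atp2a1 moved by over 1.5 times without at least 1 library, and no such fit brought a call among the 10. The difference in the log2 ratio of Pln to Atp2a2 was -0.023 with a prior count of 5, and -0.25 to 0.41 with 1 library left out. Cdh5 changed sign under scaling by total counts (0.021), limma-voom (0.0053) and the replicate block (0.0051). With 1 library left out, the log2 fold changes of genes near 0 crossed it, at -0.22 to 0.118 for Myl1, -0.069 to 0.057 for S100a1, -0.085 to 0.127 for Rgs5, -0.169 to 0.083 for Kdr and -0.099 to 0.127 for Cdh5. The cause of these changes was not tested. Pln rests on 2 to 16 counts a library.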
